A study of Mus musculus with 16 samples.

Results

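The nuclear tRNAs for cysteine with the anticodon GCA were followed through 16 mouse libraries, 8 from hearts and 8 from mouse embryonic fibroblasts (MEFs), sequenced by mim-tRNAseq, a method that reads full-length tRNA. The members were all rows of the 2 count tables named tRNA-Cys-GCA with a running number, leaving out mitochondrial rows and rows named tRX. There were 28 of them in each table, among 821 rows for the hearts and 819 for the MEFs. Members that share an anticodon and differ elsewhere in the molecule are called isodecoders. Of the 28, 7 passed the filter on low counts in the hearts and 12 in the MEFs.

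Cysteine tRNA is charged with cysteine by its cytosolic synthetase and delivers it to ribosomes at the codons UGC and UGU, both of which the GCA anticodon can read. Nuclear tRNA genes are transcribed by RNA polymerase III and lie in many copies, so that isodecoders made from different copies feed the same decoding step. The mitochondrial cysteine tRNA is a separate molecule, encoded in mitochondrial DNA and used only there. RefSeq lists 57 mouse genes for nuclear tRNA-Cys with this anticodon (assembly GRCm38.p6), of which 49 lie on chromosome 6, 5 on chromosome 11, 2 on chromosome 9 and 1 on chromosome 17. The table gives no link between these genes and the running numbers of the isodecoders, so no isodecoder was placed on a chromosome.

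The study addressed the correction, by a base editor, of a disease mutation in mitochondrial tRNA-Ala. The labels place all hearts, controls included, in the m.5024T mouse model, injected with AAV9-DdCBE or AAV9-GFP. AAV9 is a viral vector that reaches the heart well, a DdCBE is a protein editor of cytosine in mitochondrial DNA, and GFP is a fluorescent control protein. The AAV9-DdCBE hearts carry the title labels 2X (mouse 26), 5X (mouse 25) and 10X (mice 18 and 17), and the AAV9-GFP hearts 3X (mice 19 and 14) and 5X (mice 5 and 6). The sources used here do not give the meaning of the X label, the age of the mice or the promoter of the vector. The MEFs were the lines Cl_1, Cl_2 and Cl_3 and the line Ctrl_1, with 2 libraries each from separate passages. The titles do not give the genotype of any line, and the Cl lines were set against 1 control line only. Libraries held 1540287 to 3037178 counts in the hearts and 1473330 to 4375975 in the MEFs, of which 23423 to 36415 and 47949 to 132334 belonged to tRNA-Cys-GCA. The tables hold tRNA alone, so the labelled cell types could not be checked against marker genes. The sources used here do not say how reads shared by near-identical isodecoders were assigned, and the value of a single isodecoder depends on that step.

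In every library the pool was dominated by the same 3 isodecoders, tRNA-Cys-GCA-3, tRNA-Cys-GCA-7 and tRNA-Cys-GCA-2, the only members above 5% of the tRNA-Cys-GCA counts in all 16 libraries. In AAV9-GFP hearts tRNA-Cys-GCA-3 made up 49.8% ± 0.854 of the tRNA-Cys-GCA counts, tRNA-Cys-GCA-7 28.9% ± 0.577 and tRNA-Cys-GCA-2 19.7% ± 0.354 (SD, n = 4). In the Ctrl_1 line the shares were 46.8% ± 0.297, 41.2% ± 0.412 and 7.05% ± 0.126 in the same order (SD, n = 2). The ranges of these 3 did not overlap each other in either group. The order was thus the same in both tables, while tRNA-Cys-GCA-2 held a larger and tRNA-Cys-GCA-7 a smaller share in hearts than in MEFs. Hearts and MEFs were deposited as separate tables, and no test was made between them.

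The remaining 25 isodecoders together were a small part of the pool in the control groups. In AAV9-GFP hearts tRNA-Cys-GCA-1 followed with 1.19% ± 0.238, tRNA-Cys-GCA-5 with 0.316% ± 0.0565 and tRNA-Cys-GCA-4 with 0.108% ± 0.0222 (SD, n = 4). tRNA-Cys-GCA-8 was at 0.0207% ± 0.00941 and tRNA-Cys-GCA-9 at 0.0181% ± 0.0151, and their ranges overlapped. In Ctrl_1 the order was tRNA-Cys-GCA-1 (2.59% ± 0.0644), tRNA-Cys-GCA-5 (1.78% ± 0.0225), tRNA-Cys-GCA-8 (0.265% ± 0.0253) and tRNA-Cys-GCA-4 (0.226% ± 0.00398; SD, n = 2). tRNA-Cys-GCA-8 therefore stood above tRNA-Cys-GCA-4 in the control fibroblasts and below it in the control hearts. Further members were near the limit of detection: 7 of 28 had no count in any heart and 5 none in any MEF library, where 3 counts, the limit that a count of 0 allows, correspond to 0.00824% to 0.0128% of the tRNA-Cys-GCA counts of a heart and 0.00227% to 0.00626% of those of a MEF library. All 9 rows named tRX-Cys and the row tRNA-Cys-ACA-1 had 0 counts in both tables.

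The tRNA-Cys-GCA total was the first quantity compared, since it is what the decoding of cysteine codons draws on. In AAV9-DdCBE hearts the total took 2.34% (mouse 26), 2.69% (mouse 25), 2.91% (mouse 18) and 2.83% (mouse 17) of all nuclear tRNA counts. In AAV9-GFP hearts it took 2.03% (mouse 19), 2.65% (mouse 14), 2.59% (mouse 5) and 2.08% (mouse 6). The groups overlapped, with mouse 26 below the upper 2 AAV9-GFP hearts. The mean was 2.69% ± 0.252 in AAV9-DdCBE hearts and 2.34% ± 0.327 in AAV9-GFP hearts (SD, n = 4 each; exact two-sided permutation test over 70 splits, p = 0.143; Benjamini-Hochberg adjusted p = 0.190 over 4 share tests).

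Counts were then summed per anticodon and fitted with all 70 anticodon totals, of which 48 were nuclear. The tRNA-Cys-GCA total had a log2 change of 0.17 in AAV9-DdCBE against AAV9-GFP hearts (SE 0.11, 95% interval -0.09 to 0.43, edgeR quasi-likelihood test, adjusted p = 0.806). No anticodon total passed the threshold of 0.05 in that comparison (0% of 70 by edgeR, with 3 under 0.05 before adjustment), and DESeq2 did not call the tRNA-Cys-GCA total (adjusted p = 0.622). In the 2 hearts labelled 10X against AAV9-GFP the change of the total was 0.23 (SE 0.15, 95% interval -0.13 to 0.60, edgeR adjusted p = 0.399).

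In the MEFs the total took 3.11% and 3.04% of nuclear counts in Cl_1, 3.68% and 3.34% in Cl_2, 3.08% and 3.18% in Cl_3, and 3.24% and 3.13% in Ctrl_1. The Cl libraries lay on both sides of the control. Their mean was 3.24% ± 0.240 (SD, n = 6), against 3.18% ± 0.0758 in Ctrl_1 (SD, n = 2; exact two-sided permutation test over 28 splits, p = 0.786). The log2 change of the total in the mean of the Cl lines against Ctrl_1 was 0.05 (SE 0.07, 95% interval -0.11 to 0.21, edgeR adjusted p = 0.584), in a fit where 29 of 74 anticodon totals passed (39.2%). Of the 74 totals in this fit, 48 were nuclear. Neither data set gave a called change of the tRNA-Cys-GCA total.

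**Figure D1:**
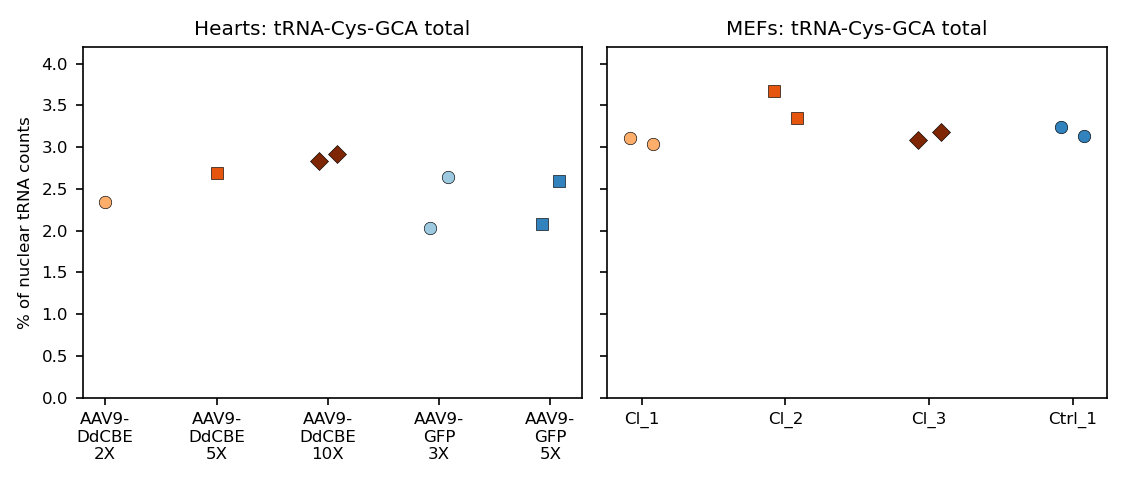
The tRNA-Cys-GCA total as a percentage of nuclear tRNA counts (y axis, from 0), 1 point per library, by treatment and X label in hearts (left) and by line in MEFs (right). The AAV9-DdCBE hearts sit between 2.34% and 2.91% and the AAV9-GFP hearts between 2.03% and 2.65%, and the Cl libraries lie on both sides of Ctrl_1.

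Within this total, 4 rare isodecoders were higher in the hearts labelled 10X. tRNA-Cys-GCA-4 had 51 counts in mouse 26 (2X), 88 in mouse 25 (5X), 1196 in mouse 18 (10X) and 3202 in mouse 17 (10X), against 28, 26, 34 and 46 in the AAV9-GFP mice 19, 14, 5 and 6. As a share of the tRNA-Cys-GCA counts it was 0.148%, 0.327%, 3.57% and 9.28% in the AAV9-DdCBE hearts, against 0.0894%, 0.111%, 0.0934% and 0.138% in the AAV9-GFP hearts in the same order. All 4 AAV9-DdCBE hearts were above all 4 AAV9-GFP hearts, mouse 26 by little and the 10X hearts by far. The 95% Wilson interval of the share was 8.98% to 9.59% in mouse 17 and 0.112% to 0.194% in mouse 26. The interval of mouse 26 overlapped those of all 4 AAV9-GFP hearts, from 0.0619% to 0.129% in mouse 19 to 0.104% to 0.184% in mouse 6. Such intervals cover counting error only.

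The mean share of tRNA-Cys-GCA-4 was 3.33% ± 4.27 in AAV9-DdCBE hearts and 0.108% ± 0.0222 in AAV9-GFP hearts (SD, n = 4 each). The exact two-sided permutation test gave p = 0.0286, the smallest that 70 splits allow, and an adjusted p of 0.0714 over 4 share tests. The difference did not pass after adjustment, and given the p-values of the other share tests it could not have passed. In the fit over all 180 tested rows its change was 4.78 in log2 units (SE 1.11, edgeR adjusted p = 0.0775), also short of the threshold. That its groups did not overlap, on TMM-scaled CPM (counts scaled to library size), was a trait of 1 of the 7 tested members and of 5.56% of all tested rows in the same direction. Hearts with the label 5X were present under both treatments, 1 with AAV9-DdCBE (0.327%) and 2 with AAV9-GFP (0.0934% and 0.138%), too few for a test.

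None of the 7 tested members passed in AAV9-DdCBE against AAV9-GFP, where 0% of the 180 rows did (edgeR; 35 rows, or 19.4%, were under 0.05 before adjustment). tRNA-Cys-GCA-8 was at 3.35 (SE 0.95, edgeR adjusted p = 0.0819), tRNA-Cys-GCA-5 at 1.76 (SE 0.56, edgeR adjusted p = 0.0977) and tRNA-Cys-GCA-1 at 1.30 (SE 0.47, edgeR adjusted p = 0.139) on the log2 scale. The abundant members tRNA-Cys-GCA-2, tRNA-Cys-GCA-3 and tRNA-Cys-GCA-7 were at -0.08, -0.10 and -0.17, with edgeR adjusted p-values of 0.716, 0.683 and 0.517. The median over the 7 members was 1.30, beside -0.10 over all rows. DESeq2 called 4 members in this comparison, all higher, where it called 15% of all rows higher. Without mouse 26 edgeR called 4 of 8 tested members, where 16.6% of rows were called higher, and without mouse 25 it called 2 of 8, where 9.89% were.

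Split by label, 4 of the 7 tested members rose in the 10X hearts against AAV9-GFP and none fell, where 23.9% of all rows were called higher and 27.8% lower. That split of calls, 43 higher and 50 lower, was 49 and 15 with size factors, 48 and 9 on library totals and 60 and 6 on nuclear counts, and under each of these 4 members rose and none fell. tRNA-Cys-GCA-4 rose most, by 5.72 in log2 units (SE 0.35, edgeR adjusted p = 7.12e-06), and by abundance it held rank 4 in the family in both 10X hearts, against rank 6 in the other 6 hearts. tRNA-Cys-GCA-8 rose by 4.22 (SE 0.48, edgeR adjusted p = 1.47e-04): it had 10 counts in mouse 26, 8 in mouse 25, 73 in mouse 18 and 240 in mouse 17, against 9, 2, 10 and 6 in AAV9-GFP mice 19, 14, 5 and 6. In both of these members the 10X hearts stood apart from the 6 others. tRNA-Cys-GCA-8 passed the filter on low counts only through its counts in the 10X hearts. Its calls are therefore not independent of that filter, in this and the other heart comparisons.

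tRNA-Cys-GCA-5 rose by 2.45 (SE 0.28, edgeR adjusted p = 1.48e-04). Its share was 0.330% in mouse 26, 0.472% in mouse 25, 1.29% in mouse 18 and 2.56% in mouse 17, against 0.316%, 0.393%, 0.258% and 0.297% in mice 19, 14, 5 and 6. tRNA-Cys-GCA-1 rose by 1.91 (SE 0.26, edgeR adjusted p = 4.65e-04), with 1.30%, 1.34%, 3.54% and 6.44% in mice 26, 25, 18 and 17, against 1.22%, 1.503%, 0.939% and 1.10% in mice 19, 14, 5 and 6. For tRNA-Cys-GCA-1 mice 26 and 25 lay inside the AAV9-GFP range. This split was chosen with earlier results of these data known, 10X occurs only with AAV9-DdCBE, so that the label and the editor cannot be told apart here, and each group was small (2 hearts against 4).

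The 3 abundant isodecoders did not pass in the 10X hearts. tRNA-Cys-GCA-3 made up 51.3%, 49.8%, 45.6% and 41.4% of the tRNA-Cys-GCA counts in mice 26, 25, 18 and 17, against 49.8%, 48.6%, 50.5% and 50.2% in mice 19, 14, 5 and 6. Its share was thus lowest in the 10X hearts, while the change of its level was -0.31 in log2 units (SE 0.18, edgeR adjusted p = 0.171). tRNA-Cys-GCA-7 was at -0.36 (SE 0.20, edgeR adjusted p = 0.147) and tRNA-Cys-GCA-2 at -0.24 (SE 0.18, edgeR adjusted p = 0.260). The median of all rows under this scaling was -0.23; scaled on nuclear counts it was 0.21, and these 3 members then stood at 0.10, 0.05 and 0.18. Without mouse 18 tRNA-Cys-GCA-7 passed as lower (log2 -0.66, edgeR adjusted p = 0.0357).

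Scaled to nuclear tRNA counts (nuclear CPM), the 3 abundant members summed to 23000, 26263, 26561 and 22792 in mice 26, 25, 18 and 17, against 19954, 25918, 25591 and 20481 in mice 19, 14, 5 and 6. The other 25 members summed to 431, 598, 2575 and 5528 in the AAV9-DdCBE hearts, against 348, 546, 344 and 328 in the AAV9-GFP hearts, in the same order of mice. The abundant members of both 10X hearts thus lay within or just above the AAV9-GFP range, while the sum of the rare ones lay above it. The rare ones made up 19.5% of the tRNA-Cys-GCA counts in mouse 17 and 8.84% in mouse 18, against 1.33% to 2.06% in AAV9-GFP hearts. These 2 sets were formed after their values were seen, and no test was made on them.

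**Figure D2:**
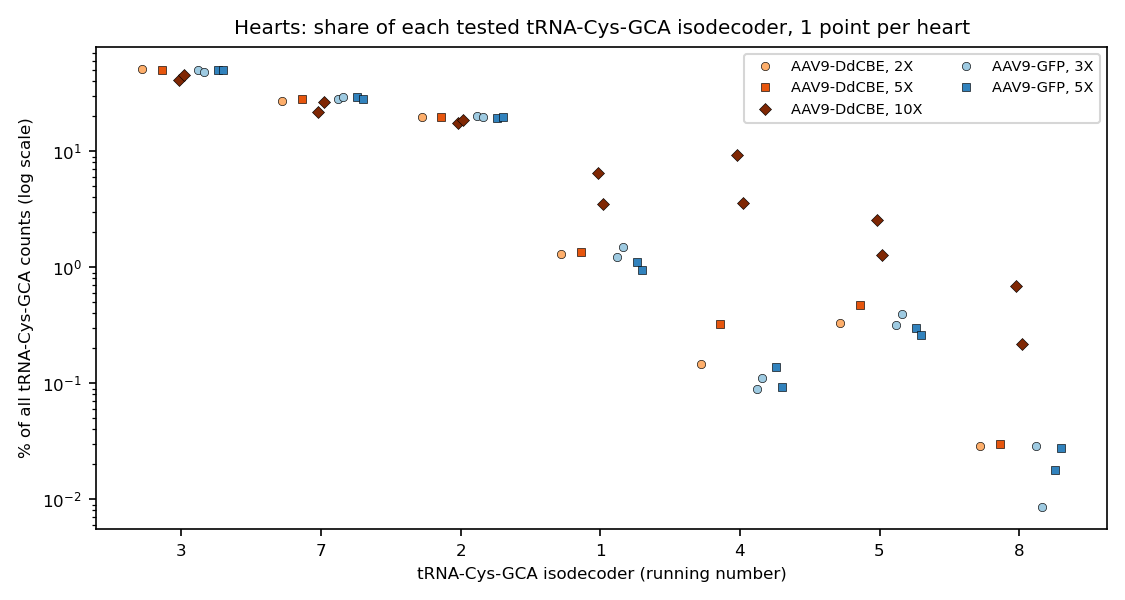
Share of each tested isodecoder in the tRNA-Cys-GCA counts of a heart (y axis, percent on a log scale), 1 point per heart, with the isodecoders along the x axis in order of mean share. The 10X hearts (diamonds) stand above the other 6 hearts for tRNA-Cys-GCA-1, tRNA-Cys-GCA-4, tRNA-Cys-GCA-5 and tRNA-Cys-GCA-8, at 9.28% and 3.57% for tRNA-Cys-GCA-4.

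The shift inside the family was also tested as isodecoder usage, the change of a member relative to the other members of its anticodon (edgeR diffSpliceDGE, adjusted over 151 rows). In the 10X hearts against AAV9-GFP the same 4 members rose in usage, by 5.85 for tRNA-Cys-GCA-4, 4.34 for tRNA-Cys-GCA-8, 2.58 for tRNA-Cys-GCA-5 and 2.04 for tRNA-Cys-GCA-1 on the log2 scale (edgeR adjusted p at most 2.69e-07), where 33.1% of rows were called higher and 0.662% lower. In AAV9-DdCBE against AAV9-GFP, 2 members passed, tRNA-Cys-GCA-4 (4.81, edgeR adjusted p = 9.67e-06) and tRNA-Cys-GCA-8 (3.38, edgeR adjusted p = 0.00249), where 14.6% of rows were called higher and 0% lower. The count was lower without mouse 17 and higher without mouse 26, with no share of all rows given beside it. This test pools the spread over the members of an anticodon, so its p-values are too small for a member that varies more between hearts than its family does.

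Of the 28 members, 21 were too rare for the test in the hearts. Together they had 11 counts in mouse 26, 15 in mouse 25, 75 in mouse 18 and 187 in mouse 17, against 18, 11, 3 and 7 in mice 19, 14, 5 and 6. tRNA-Cys-GCA-6 had 2, 7, 26 and 78 counts in mice 26, 25, 18 and 17, against 2, 0, 1 and 1 in the AAV9-GFP hearts. tRNA-Cys-GCA-9 had 4, 6, 25 and 50, against 6, 9, 1 and 4. For tRNA-Cys-GCA-9, as for the sum, the 10X hearts alone lay above the AAV9-GFP range; for tRNA-Cys-GCA-6 mouse 25 did as well. Without the filter on low counts, 10 of the 21 members with a count in any heart were called higher in the 10X hearts against AAV9-GFP and none lower, where 22.5% of the 271 rows were called higher. Against the 5X and 2X hearts 7 were, where 18.8% of rows were called higher. tRNA-Cys-GCA-11, tRNA-Cys-GCA-12, tRNA-Cys-GCA-13, tRNA-Cys-GCA-15 and tRNA-Cys-GCA-26 had counts in the 10X hearts only. Such members could not be called lower there, so the direction of their change was fixed in advance.

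Within the editor, the 10X hearts were also set against the hearts labelled 5X and 2X. The same 4 members were higher, by 4.63 for tRNA-Cys-GCA-4 (SE 0.44, edgeR adjusted p = 1.76e-04), 3.70 for tRNA-Cys-GCA-8 (SE 0.60, edgeR adjusted p = 0.00222), 2.06 for tRNA-Cys-GCA-5 (SE 0.35, edgeR adjusted p = 0.00274) and 1.70 for tRNA-Cys-GCA-1 (SE 0.32, edgeR adjusted p = 0.00484) on the log2 scale, where 20.6% of rows were called higher and 10.6% lower. The 5X and 2X hearts enter as groups of 1 and add nothing to the spread. Against AAV9-GFP, tRNA-Cys-GCA-4 stood at 1.71 in mouse 25 and at 0.48 in mouse 26, single hearts with no spread of their own. Between the AAV9-GFP hearts labelled 5X and 3X, no member passed and 0% of rows did (edgeR; 5 rows, or 2.78%, were under 0.05 before adjustment), and tRNA-Cys-GCA-4 was at 0.29 (SE 0.48).

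The share of mitochondrial tRNAs was also highest in the 10X hearts, though mouse 18 was only just above mouse 19. Mitochondrial tRNAs took 38.9%, 39.2%, 44.5% and 59.9% of all counts in mice 26, 25, 18 and 17, against 43.3%, 42.5%, 37.4% and 38.1% in mice 19, 14, 5 and 6. The part of this in the results was not tested. Without mouse 17, tRNA-Cys-GCA-4 was at 5.05 in the single remaining 10X heart against AAV9-GFP, a heart with no spread of its own. The mitochondrial tRNA-Cys stood at a log2 difference of -0.22 in the 10X hearts (SE 0.21, edgeR adjusted p = 0.387) and -0.10 in all AAV9-DdCBE hearts (SE 0.18, edgeR adjusted p = 0.707).

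The rows outside the family whose level followed tRNA-Cys-GCA-4 most closely over the 8 hearts were tRNA-Ala-AGC-10 (Pearson r = 0.998 on log2 CPM), tRNA-Met-CAT-4 (r = 0.993) and tRNA-Gly-CCC-2 (r = 0.991). With the 10X hearts left out these values were 0.972, 0.967 and 0.956 over 6 hearts. Inside the family, r with tRNA-Cys-GCA-4 over 8 hearts was 0.985 for tRNA-Cys-GCA-5, 0.968 for tRNA-Cys-GCA-1 and 0.955 for tRNA-Cys-GCA-8, and over the 6 hearts 0.803, 0.504 and 0.311. The closeness inside the family thus rested largely on the 10X hearts. tRNA-Cys-GCA-8 had only 2 to 10 counts in each of those 6 hearts, so its r there rests on low counts. The rows outside the family were picked for the highest r over the 8 hearts, these 6 included. tRNA-Cys-GCA-3 was followed most closely by tRNA-Pro-AGG-1 (r = 0.894), tRNA-Leu-TAG-3 (r = 0.892) and tRNA-Arg-TCT-3 (r = 0.882), and over the 6 hearts these were 0.590, 0.651 and 0.568. These points share libraries and scaling, and r is given as a description.

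In the MEFs, the 3 abundant members and 9 of the rare ones were tested. Set against Ctrl_1, the averaged Cl lines had 4 of 12 tested members higher and none lower, where 22.9% of the 201 rows tested were called higher and 25.4% lower. All 4 were among the 9 rare members, of which 5 did not pass, and none of the 3 abundant ones passed under this scaling. On library totals the rows split into 61 higher and 35 lower, against 46 and 51 here, and 6 members were then higher. The median log2 change of the 12 was 0.32, beside -0.00080 over all rows. Groups that did not overlap in CPM were found for 4 of the 12, tRNA-Cys-GCA-2, tRNA-Cys-GCA-4, tRNA-Cys-GCA-5 and tRNA-Cys-GCA-6, all higher in the Cl lines, and for 21.4% of all rows in that direction. Mitochondrial tRNAs took 2.14% and 3.01% of all counts in Cl_1, 2.42% and 2.70% in Cl_2, 2.39% and 2.61% in Cl_3, and 3.74% and 3.41% in Ctrl_1. These ranges did not overlap between the Cl lines and Ctrl_1, and their part in the results was not tested.

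tRNA-Cys-GCA-4 took 0.421% and 0.502% of the tRNA-Cys-GCA counts in Cl_1, 0.722% and 0.780% in Cl_2, 0.933% and 0.939% in Cl_3, and 0.223% and 0.229% in Ctrl_1. Each Cl library was above both control libraries, and the lines did not overlap each other. The mean was 0.716% ± 0.216 in the Cl libraries (SD, n = 6) and 0.226% ± 0.00398 in Ctrl_1 (SD, n = 2; exact two-sided permutation test, p = 0.0357, the smallest that 28 splits allow; adjusted p = 0.0714). With the 4 lines as units the exact permutation p was 0.25, the smallest that 4 splits allow. Averaged over the Cl lines its level changed by 1.54 in log2 units (SE 0.13, edgeR adjusted p = 1.16e-04). Line by line the change was 0.92 (Cl_1), 1.78 (Cl_2) and 1.90 (Cl_3), each past the threshold (edgeR adjusted p 9.25e-05 to 0.00258).

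tRNA-Cys-GCA-6, a member with 19 to 43 counts per library, rose by 0.99 averaged over the Cl lines (SE 0.20, edgeR adjusted p = 0.00510). It had 26 and 23 counts in Cl_1, 43 and 27 in Cl_2, 37 and 43 in Cl_3, and 19 and 24 in Ctrl_1, from libraries of unequal depth. As a share of the tRNA-Cys-GCA counts, every Cl library, at 0.0247% to 0.0563%, was above Ctrl_1, at 0.0181% and 0.0186%. DESeq2 did not call it (log2 0.9985, DESeq2 adjusted p = 0.146).

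tRNA-Cys-GCA-5 rose by 0.42 (SE 0.09, edgeR adjusted p = 0.00795) and tRNA-Cys-GCA-1 by 0.39 (SE 0.10, edgeR adjusted p = 0.0143). tRNA-Cys-GCA-5 took 2.17% and 2.36% in Cl_1, 2.58% and 2.58% in Cl_2, 2.64% and 2.64% in Cl_3, and 1.77% and 1.80% in Ctrl_1. tRNA-Cys-GCA-1 took 2.77% and 2.92% in Cl_1, 3.71% and 3.72% in Cl_2, 3.97% and 4.44% in Cl_3, and 2.63% and 2.54% in Ctrl_1. For both, the shares in the Cl libraries were all above those in Ctrl_1, by least in Cl_1.

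The number of these calls fell when a control library was left out, which leaves a single one. With any 1 of the 8 libraries left out, the log2 changes stayed at 1.51 to 1.56 for tRNA-Cys-GCA-4 and 0.93 to 1.06 for tRNA-Cys-GCA-6. They stayed at 0.39 to 0.44 for tRNA-Cys-GCA-5 and 0.33 to 0.44 for tRNA-Cys-GCA-1. Without replicate 1 of Ctrl_1, 2 members passed, where 14.4% of rows were called higher, and without replicate 2 of Ctrl_1, 1 did, tRNA-Cys-GCA-4, where 17.3% were. Since both libraries of a line are passages of it, these p-values reflect variation among passages only. When the 2 libraries of a line were added together, no member passed (0 in edgeR, where 4.07% of rows did, with tRNA-Cys-GCA-4 at a log2 change of 1.60, edgeR adjusted p = 0.108).

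The abundant members were near the level of Ctrl_1. tRNA-Cys-GCA-3 was at -0.12 (SE 0.07, edgeR adjusted p = 0.185), tRNA-Cys-GCA-7 at -0.14 (SE 0.06, edgeR adjusted p = 0.0958) and tRNA-Cys-GCA-2 at 0.19 (SE 0.07, edgeR adjusted p = 0.0634) averaged over the Cl lines. As shares, tRNA-Cys-GCA-7 took 38.1% to 40.3% in the Cl libraries and 40.9% and 41.5% in Ctrl_1, and tRNA-Cys-GCA-2 took 8.16% to 8.64% in the Cl libraries and 6.96% and 7.14% in Ctrl_1. The ranges of both shares were apart. tRNA-Cys-GCA-2 passed as higher when scaled on library totals (0.29, edgeR adjusted p = 0.00980) or nuclear counts (0.27, edgeR adjusted p = 0.0120) and in DESeq2 (0.19, DESeq2 adjusted p = 0.0342).

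The other 5 tested members did not pass: tRNA-Cys-GCA-9 was at 0.54, tRNA-Cys-GCA-8 at 0.32, tRNA-Cys-GCA-10 at 0.31, tRNA-Cys-GCA-16 at 0.23 and tRNA-Cys-GCA-17 at 0.11 (edgeR adjusted p 0.0694 to 0.849). The 16 members too rare for the test had 5 to 21 counts in the Cl libraries, and 10 in each Ctrl_1 library. The mitochondrial tRNA-Cys was at -0.10 (SE 0.19, edgeR adjusted p = 0.688).

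**Figure D3:**
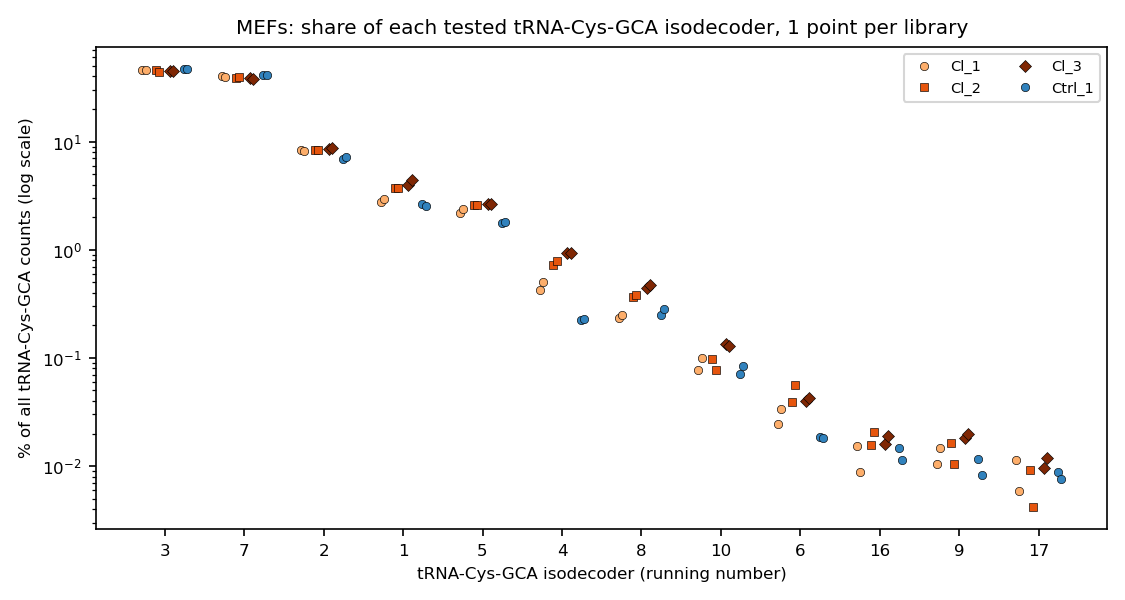
Share of each tested isodecoder in the tRNA-Cys-GCA counts of a MEF library (y axis, percent on a log scale), 1 point per library, with the isodecoders along the x axis in order of mean share. For tRNA-Cys-GCA-4 the Cl libraries sit at 0.421% to 0.939%, above Ctrl_1 at 0.223% and 0.229%, while tRNA-Cys-GCA-3 lies at 44.3% to 45.9% in the Cl libraries and 46.6% and 47.0% in Ctrl_1.

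The lines differed in how many members passed. In Cl_1 1 of 12 rose, tRNA-Cys-GCA-4, where 14.9% of rows were called higher and 18.9% lower. In Cl_2 6 rose, where 25.9% were called higher and 20.4% lower, and in Cl_3 6 rose and 1 fell, where 26.4% were called higher and 24.4% lower. tRNA-Cys-GCA-1, tRNA-Cys-GCA-5, tRNA-Cys-GCA-6 and tRNA-Cys-GCA-8 rose in both Cl_2 and Cl_3. tRNA-Cys-GCA-2 also passed in Cl_2 (0.30, edgeR adjusted p = 0.0266), tRNA-Cys-GCA-10 in Cl_3 (0.61, edgeR adjusted p = 0.0449), and tRNA-Cys-GCA-7 fell in Cl_3 by 0.25 on the log2 scale (edgeR adjusted p = 0.0254). The 3 comparisons share the Ctrl_1 libraries. In Cl_3 the count of 7 was lower when either of its replicates or either replicate of Ctrl_1 was left out. The share of all rows called in those fits is not given here.

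Compared directly among the Cl lines, 3 of the 12 tested members differed, a share near the 24.4% of all rows that did (edgeR F test). Differing among the lines was thus not particular to this family. tRNA-Cys-GCA-4 was higher in Cl_2 than in Cl_1 by 0.86 (SE 0.14, edgeR adjusted p = 0.00712) and in Cl_3 than in Cl_1 by 0.98 (SE 0.14, edgeR adjusted p = 0.00297). tRNA-Cys-GCA-8 was higher in Cl_2 by 0.77 (SE 0.16, edgeR adjusted p = 0.0148) and in Cl_3 by 0.86 (SE 0.15, edgeR adjusted p = 0.00705) than in Cl_1. Its share was 0.236% and 0.251% in Cl_1, 0.367% and 0.380% in Cl_2, 0.446% and 0.469% in Cl_3, and 0.247% and 0.283% in Ctrl_1, so that Cl_1 and Ctrl_1 overlapped. tRNA-Cys-GCA-1 was higher by 0.54 in Cl_2 (SE 0.12, edgeR adjusted p = 0.0204) and by 0.52 in Cl_3 (SE 0.12, edgeR adjusted p = 0.0177) than in Cl_1. Cl_3 and Cl_2 did not differ past the threshold in these 3 members (log2 differences -0.02 to 0.12, edgeR adjusted p 0.729 to 0.926). The F test called fewer members without replicate 2 of Cl_3 and without either replicate of Cl_1. The share of all rows called in those fits is not given here.

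Relative to their own anticodon, 4 members rose in usage averaged over the Cl lines and none fell, where 17.8% of 169 rows were called higher and 5.92% lower (edgeR diffSpliceDGE). tRNA-Cys-GCA-4 rose by 1.60 (edgeR adjusted p = 9.22e-11), tRNA-Cys-GCA-6 by 1.05 (edgeR adjusted p = 0.00633), tRNA-Cys-GCA-5 by 0.48 (edgeR adjusted p = 0.0389) and tRNA-Cys-GCA-1 by 0.45 (edgeR adjusted p = 0.0470). The count was lower without either replicate of Ctrl_1, of Cl_2 or of Cl_3, with no share of all rows given beside it. The caution on the p-values of this test given for the hearts holds here as well.

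Over the 8 MEF libraries, the level of tRNA-Cys-GCA-4 was followed most closely outside the family by tRNA-Asn-GTT-1 (r = 0.984), tRNA-Ser-GCT-1 (r = 0.980) and tRNA-Gly-CCC-4 (r = 0.975). Inside the family r was 0.930 for tRNA-Cys-GCA-5, 0.922 for tRNA-Cys-GCA-6 and 0.894 for tRNA-Cys-GCA-1, and -0.41 and -0.50 for tRNA-Cys-GCA-3 and tRNA-Cys-GCA-7. tRNA-Cys-GCA-3 itself was followed by its fellow tRNA-Cys-GCA-7 (r = 0.972) and, outside the family, by tRNA-Gln-TTG-1 (r = 0.829), tRNA-Gln-CTG-2 (r = 0.806) and the shared row tRNA-Ser-AGA-2/1 (r = 0.789). The closest rows outside the family were not the same in hearts and MEFs.

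Set side by side, tRNA-Cys-GCA-4 changed most among the tested members in both data sets, by 5.72 on the log2 scale in the 10X hearts and 1.54 over the Cl lines. tRNA-Cys-GCA-8 came next among the tested members in the hearts (4.22) and was at 0.32, short of the threshold, in the MEFs. tRNA-Cys-GCA-6 came next in the MEFs (0.99). It was too rare for the test in the hearts, where its mean CPM was 19.1 ± 11.4 in the 10X hearts (SD, n = 2) and 0.413 ± 0.330 in AAV9-GFP hearts (SD, n = 4), a ratio of 46.3 that rests on 4 counts in the AAV9-GFP hearts, beside 52.8 for tRNA-Cys-GCA-4 and 19.4 for tRNA-Cys-GCA-8. tRNA-Cys-GCA-1 and tRNA-Cys-GCA-5 passed in both. The share of tRNA-Cys-GCA-4 in the 10X hearts, 3.57% and 9.28%, was above that in any MEF library, while tRNA-Cys-GCA-2 took 18.8% and 17.4% there, below the other 6 hearts (19.2% to 20.04%) and above the Cl libraries (8.16% to 8.64%). Hearts and MEFs were not compared by a test.

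**Figure D4:**
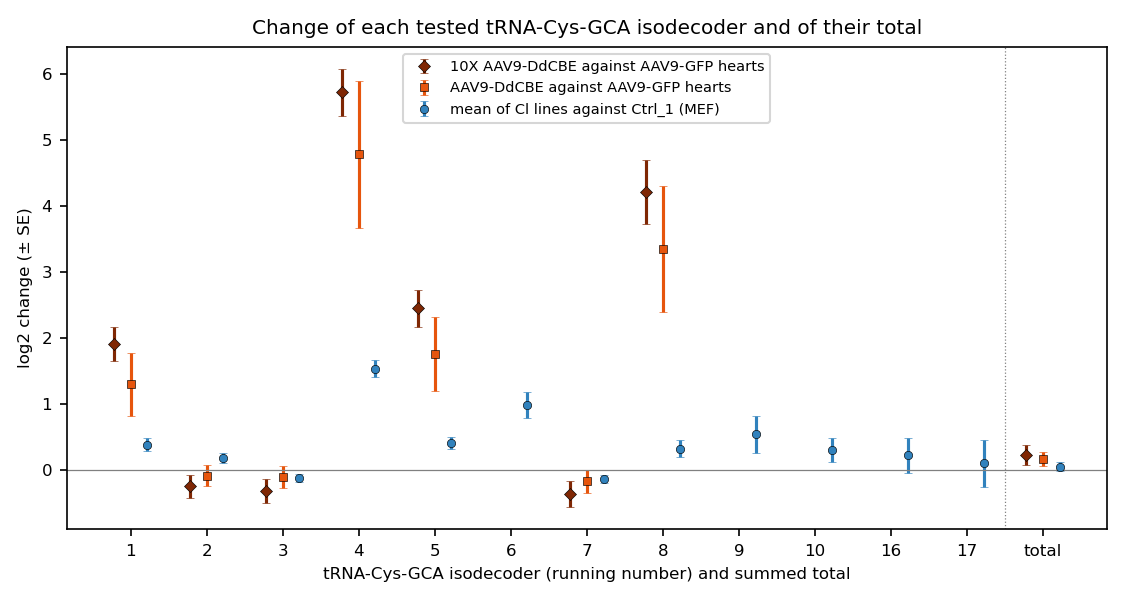
Log2 change with its SE (y axis) of each tested isodecoder and of the summed total (x axis), for the 10X hearts against AAV9-GFP, all AAV9-DdCBE against AAV9-GFP hearts, and the mean of the Cl lines against Ctrl_1. tRNA-Cys-GCA-4 lies at 5.72, 4.78 and 1.54 in the 3 comparisons, whereas the total lies at 0.23, 0.17 and 0.05.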

How the data were processed

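tRNA was measured in 16 mouse libraries. The authors deposited raw read counts per tRNA transcript, whole numbers, with hearts and MEFs in separate tables. Per the labels' protocols, libraries followed mim-tRNAseq, from RNA kept mildly acidic and then subjected to oxidation and beta-elimination, on a NextSeq 500. cutadapt 3.5 and the build mm39 are named in the submitters' processing notes; the sources used here name no aligner or counter. All 16 columns matched a sample title.

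The tests used edgeR 4.0.16 under R 4.3.3 (TMM, filterByExpr by line or by treatment with a minimum count of 10, glmQLFTest), adjusted by Benjamini-Hochberg over all rows tested in a table, at a threshold of 0.05. The MEFs entered 1 fit by line and the hearts a fit by treatment and another with the AAV9-DdCBE hearts split by label. An SE is the log2 change divided by the square root of F. Isodecoder usage was tested with diffSpliceDGE and shares by exact permutation, counting splits with an absolute difference at least as large. DESeq2 1.42.0, other scalings, no filter, summed lines, a replicate block and leaving out each library were tried. Scripts were tested on simulated data. Each of 16 within-group pairs of libraries differed by more than sampling noise (98.2 to 1889 for chi-square over its degrees of freedom). The members and lists were chosen with earlier results of these data known. Every member is accounted for, and rows outside the family are named as the 3 with the highest correlation with tRNA-Cys-GCA-4 and with the most abundant member.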

Additional observations from a re-analysis of the deposited data

Results flagged for a closer look

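The members below are listed because their change differed between groups set against the same control, by a test of the difference itself. Among the Cl lines of the MEFs the F test passed for tRNA-Cys-GCA-4 (edgeR adjusted p = 0.00646), tRNA-Cys-GCA-8 (edgeR adjusted p = 0.0134) and tRNA-Cys-GCA-1 (edgeR adjusted p = 0.0239), with Cl_1 the lowest of the 3 lines in each. These were 3 of 12 tested members, a share near the 24.4% of all rows that passed, so this was not particular to the family. In the hearts the members that differed between the 10X and the 5X and 2X AAV9-DdCBE hearts were tRNA-Cys-GCA-4 (edgeR adjusted p = 1.76e-04), tRNA-Cys-GCA-8 (edgeR adjusted p = 0.00222), tRNA-Cys-GCA-5 (edgeR adjusted p = 0.00274) and tRNA-Cys-GCA-1 (edgeR adjusted p = 0.00484), all higher with 10X. These were 4 of 7 tested members, where 20.6% of all rows were called higher and 10.6% lower. Of these, tRNA-Cys-GCA-8 passed the filter on low counts only through the 10X hearts. Within the groups of 4 hearts, 16 sets of values (the 7 tested shares and the total, in each treatment) were examined for a heart far from the others, and 0 passed Dixon's limit. That limit looks for a single outlying heart, so it can miss the 10X hearts, which were high together.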

How the results depend on the processing

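Of 80 alternative values of the main counts, totals and shares apart from left-out libraries, 70 were unmoved: a tested value kept its direction and its side of the threshold, and a count stayed within 1.5 times the main count. In AAV9-DdCBE against AAV9-GFP hearts 0 members passed (0% of rows), against 2 scaled on library totals (7.78% of rows) and 4 with DESeq2 (15%). Without the filter, 10 members passed in the 10X hearts (26.6% of rows), 10 in usage there (25.2%) and 7 against the 5X and 2X hearts (18.8%), with 21 members tested in place of 7. Some of the members so added had counts in the 10X hearts only. The total in the 10X hearts reversed to -0.020 on library totals. With summed lines 0 members passed in the mean of the Cl lines (edgeR). Usage over the Cl lines was called in fewer members on library totals, on nuclear counts and without the filter. The share of all rows called in those usage fits is not given here. Leaving out 1 library gave 1 to 4 members for the mean of the Cl lines (usage 1 to 4), 1 to 1 in Cl_1, 4 to 6 in Cl_2, 1 to 9 in Cl_3, 1 to 3 among the lines, 0 to 4 in AAV9-DdCBE (usage 1 to 5), 4 to 6 in the 10X hearts (usage 4 to 6) and 3 to 6 within the editor. The total then ranged over 0.01 to 0.07 (MEFs), 0.05 to 0.22 (AAV9-DdCBE) and -0.070 to 0.29 (10X), its share of nuclear counts over -0.034 to 0.11 (MEFs) and 0.25 to 0.47 points (hearts), and the tRNA-Cys-GCA-4 share difference over 0.45 to 0.55 points (MEFs) and 1.24 to 4.29 points (hearts, lowest without mouse 17). The exact permutation p of that share in hearts was 0.171 without any 1 of the AAV9-GFP hearts, and in MEFs 0.0952 without either Cl_2 library. Without either Ctrl_1 library only 1 control library is left. The exact test cannot pass the threshold there, so no p is given.

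No value that turned direction was past the threshold where it did. In AAV9-DdCBE, tRNA-Cys-GCA-2 stood at 0.013 with size factors and DESeq2, 0.0082 on library totals, 0.14 on nuclear counts and 0.024 unfiltered, tRNA-Cys-GCA-3 at 0.12 on nuclear counts and 0.00042 unfiltered, and tRNA-Cys-GCA-7 at 0.047 on nuclear counts. In the 10X hearts they were at 0.18, 0.10 and 0.048 on nuclear counts. With 1 library left out, tRNA-Cys-GCA-2 ranged over -0.13 to 0.077 and tRNA-Cys-GCA-3 over -0.16 to 0.062 in AAV9-DdCBE, tRNA-Cys-GCA-2 over -0.42 to 0.012 in the 10X hearts, and tRNA-Cys-GCA-17 over -0.20 to 0.24 in the MEFs. Same-numbered MEF libraries were not taken as pairs, since the correlations of their deviations, 0.07 to 0.25 over 6 pairs of lines, were not all above 0.1 (4 were). With the replicate block 6 members passed over the Cl lines, 5 higher and 1 lower, against 4, and 52.2% of rows did; tRNA-Cys-GCA-2 (0.19, edgeR adjusted p = 0.0477) and tRNA-Cys-GCA-7 (-0.14, edgeR adjusted p = 0.0362) were added. The cause of these differences was not tested. Depth limits the 21 rare members in hearts and 16 in MEFs. The ranges of member counts with a library left out are not listed, since the shares of all rows called in those fits are not all given.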
